A study of Mus musculus with 17 samples.

Results

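The nuclear genes for mitochondrial respiratory complexes II, III and IV, for cytochrome c and for ATP synthase (complex V) were followed in adult mouse heart muscle cells after loss of MBNL1 function and during a block of transcription. They were chosen by symbol among protein-coding genes: Sdha, Sdhb, Sdhc, Sdhd, Cyc1, Cycs, and every symbol that begins with Uqcr, with Atp5, or with Cox and a digit between 4 and 8. The rule found 50 gene identifiers with 49 symbols among 55487 identifiers in the count table, namely 4 of complex II, 9 of complex III, 18 of complex IV, 18 of complex V and 1 for cytochrome c. A filter on low counts left 46 of the 50 for testing. The 4 untested identifiers were Cox4i2, with 50 counts over all libraries, Cox7b2, with 12, Cox8c, with 0, and a second Atp5o identifier (ENSMUSG00000116933), also with 0, which overlaps the counted Atp5o gene on chromosome 16. A symbol rule also takes in Atp5s, which encodes a coupling factor, and Cox7a2l, which encodes a factor of respiratory supercomplexes, and it leaves out Usmg5, another ATP synthase subunit gene, which is described with the partner genes.

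RNA was sequenced from ventricular cardiomyocytes isolated from mice at postnatal day 60, and the transcripts of MBNL1 loss-of-function (KO) mice were set against those of control (WT) mice. MBNL1 is an RNA-binding protein that controls splicing, localisation and stability of its target transcripts, and the design asks which transcripts depend on it for their stability. Cells of both genotypes were plated on laminin for 3 h, harvested at baseline (0 h), or kept in medium with BDM and the transcription inhibitor actinomycin D at 2 µg/mL and harvested after 4 or 8 h. There were 3 KO libraries at each of 0, 4 and 8 h, 3 WT libraries at 0 h, 2 at 4 h and 3 at 8 h, 17 in all. No library was kept for 4 or 8 h without actinomycin D. The labels do not say how MBNL1 was inactivated, or whether the replicates came from separate animals, so the p-values measure the spread between these libraries, which may be technical.

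Complex II (succinate dehydrogenase) and complex III (the cytochrome bc1 complex) pass electrons on through the chain, complex II to ubiquinone and complex III from ubiquinol to cytochrome c; complex IV (cytochrome c oxidase) passes them to oxygen. Complex V uses the resulting proton gradient to make ATP. Complexes III, IV and V combine nuclear subunits with subunits encoded in mitochondrial DNA, while complex II is nuclear-encoded throughout. Heart muscle depends on this machinery for nearly all of its ATP, and it uses muscle forms of several complex IV subunits beside the forms found in every tissue.

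The libraries held between 17059736 and 17971617 counted reads, of which 35.1% to 43.3% came from mitochondrial genes. The genes of complexes II to V and cytochrome c held 3.409% to 3.668% of all counts in KO libraries at 0 h and 3.195% to 3.385% in WT libraries at 0 h. Mbnl1 had 1627 to 1820 counts in KO libraries and 1465 to 1823 in WT libraries. A count over the whole gene does not show whether part of it is deleted, so Mbnl1 does not check the labels. Esr1, the oestrogen receptor gene, had 36443 to 46057 counts in KO libraries and 0 to 57 in WT libraries, which sets every library apart by its label. Because the Esr1 level goes with the label in every library, it is a further difference between KO and WT. Its part in any KO to WT difference cannot be told apart from that of MBNL1 loss. All 12 cardiomyocyte markers were detected, and their summed level was 63000 to 66300 CPM (each library's counts rescaled to a common total, after TMM scaling, which sets the libraries to a common level through the bulk of the genes) in KO libraries at 0 h, against 47400 to 51600 CPM in WT libraries at 0 h. Pericyte and smooth muscle markers, a list that includes Des, which cardiomyocytes also express, summed to 1900 to 2020 CPM in KO and 1810 to 1830 CPM in WT at 0 h. In that list Des was called higher in KO (0.24) and Abcc9 lower (-0.42), out of 8 tested. Atrial markers summed to 101 to 109 CPM in KO and 73.0 to 75.6 CPM in WT, with Nppa called higher in KO (0.69) and Myl7, Myl4, Sln and Bmp10 lower (-0.85 to -1.74). The other lists summed to less in KO at 0 h: erythroid markers to 4.38 to 6.0 CPM in KO and 6.89 to 9.36 CPM in WT, fibroblast markers to 43.5 to 49.0 CPM in KO and 81.4 to 83.2 CPM in WT, macrophage and leukocyte markers to 34.6 to 38.9 CPM in KO and 86.5 to 101 CPM in WT, and endothelial markers to 213 to 248 CPM in KO and 271 to 291 CPM in WT. No marker of any list was at 0 in every library.

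Before actinomycin D, the respiratory genes were higher in KO cardiomyocytes than in WT cardiomyocytes across the whole chain. By edgeR's quasi-likelihood test with Benjamini-Hochberg adjustment (a call is an adjusted p under 0.05), 41 of the 46 tested genes were called higher in KO and 0 lower, against 18.8% of all 13230 genes called higher and 17.9% called lower. No member was lower at an unadjusted p under 0.05 either, and DESeq2 also called 41 higher and 0 lower. Shares of all genes called are from edgeR throughout, and none is given for DESeq2. The edgeR calls covered 4 of 4 tested genes of complex II, 8 of 9 of complex III, 11 of 15 of complex IV, 17 of 17 of complex V, and Cycs. The median log2 fold change was 0.38 over the members and -0.02 over all genes. In 40 of the 46, every KO library lay above every WT library, a pattern held by 22.5% of all genes.

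The size of this difference rests on what the libraries are scaled to. When the libraries were scaled to 85 cytosolic ribosomal protein genes, the median of all genes moved by -0.33 and the same members split into 13 called higher and 7 called lower, against 3.63% of all genes called higher and 57.5% called lower under that scaling. When they were scaled to the 12 cardiomyocyte markers, a setting chosen after the data were seen, the split was 7 higher and 9 lower, against 2.65% of all genes higher and 63.4% lower, and the members' median log2 fold change was 0.00. Scaling moves all genes together, so the distance between the members and the other genes stays: the members' median lay 0.39 above that of all genes at 0 h under each of the 6 scalings, with all 46 members above it. Of the cardiomyocyte markers themselves, 9 of 12 were called higher in KO at 0 h, with a median of 0.47. In bulk libraries such as these, more cells of a type and more RNA per cell cannot be told apart, and the part of the marker differences in the respiratory gene differences was not tested. The 7 genes called higher in KO at 0 h under all 6 scalings were Sdhb, Uqcrc1, Uqcrc2, Cox6a1, Cox7a2, Cox7a2l and Atp5j2.

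**Figure D1:**
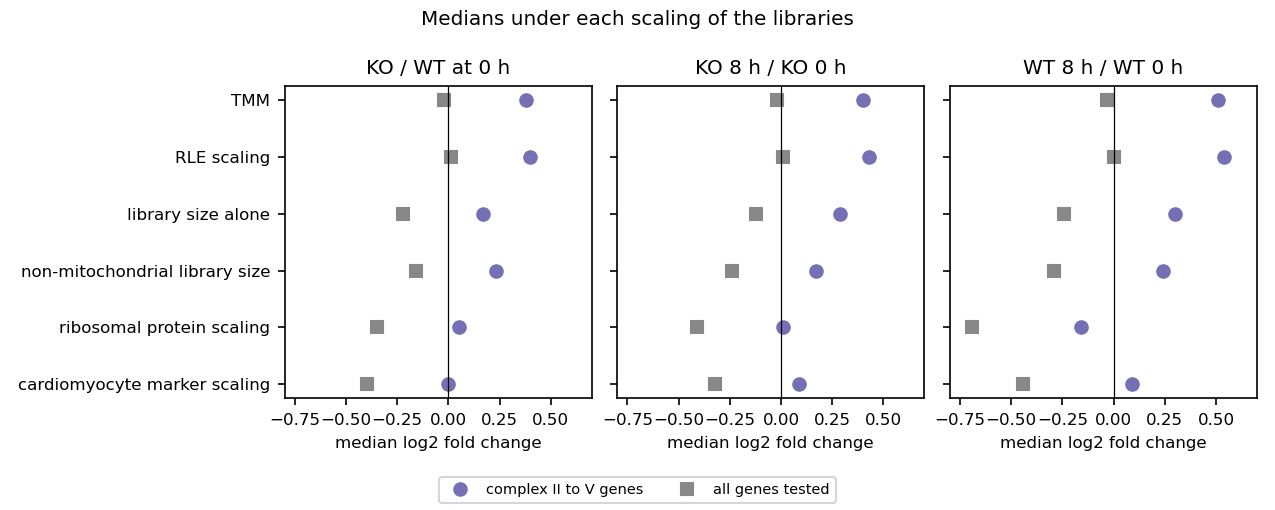
Median log2 fold change of the 46 tested respiratory genes (circles) and of all 13230 genes tested (squares), for KO against WT at 0 h, for KO at 8 h against KO at 0 h and for WT at 8 h against WT at 0 h, under 6 ways of scaling the libraries (rows). The position of both symbols shifts with the scaling, while the gap between them stays at about 0.39, 0.42 and 0.54.

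The 4 genes of complex II were all called higher in KO at 0 h. Sdhb, the iron-sulphur subunit, had 742, 718 and 827 CPM in the KO libraries at 0 h, against 477, 508 and 463 CPM in the WT libraries. The groups did not overlap, and the log2 fold change of 0.66 ± 0.04 (SE; edgeR adjusted p = 5e-19) was, with that of Cox6a1, the highest of the members. Sdha, the flavoprotein that oxidises succinate, had 1810, 1760 and 1790 CPM in KO and 1440, 1370 and 1410 CPM in WT, a log2 fold change of 0.34 ± 0.04 (edgeR adjusted p = 3.8e-11). Per kilobase of transcript it had 615 CPM in KO and 485 in WT, the highest of the complex in WT, while in KO Sdhb stood above it at 667 CPM. The membrane anchor subunits followed at 0.46 ± 0.04 for Sdhd and 0.24 ± 0.04 for Sdhc, so that log2 fold changes within this complex ranged from 0.24 to 0.66. With cardiomyocyte marker scaling Sdha and Sdhc turned to -0.04 and -0.14, and with ribosomal protein scaling Sdhc turned to -0.09.

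In complex III, log2 fold changes ranged from 0.11 to 0.60. Uqcrc1, a core protein, had 795, 739 and 794 CPM in KO at 0 h, against 550, 504 and 483 CPM in WT, a log2 fold change of 0.60 ± 0.04 (edgeR adjusted p = 9.1e-19). Uqcrc2, the other core protein, had 1310, 1300 and 1290 CPM in KO and 894, 905 and 909 CPM in WT, with KO and WT libraries far outside each other's range. Uqcr11, a small accessory subunit, had 318, 352 and 375 CPM in KO and 276, 208 and 228 CPM in WT, also with no overlap (0.55 ± 0.10). Cyc1, the haem-bearing cytochrome of the complex, had 700, 691 and 730 CPM in KO and 540, 555 and 535 CPM in WT, a log2 fold change of 0.38 ± 0.04. Uqcrfs1, the Rieske iron-sulphur protein, had a log2 fold change of 0.36 ± 0.04. Uqcr10, another small subunit, was the 1 gene of the complex with no call: 261, 277 and 303 CPM in KO overlapped 272, 248 and 261 CPM in WT (log2 fold change 0.11 ± 0.05, edgeR adjusted p = 0.102). Uqcrq had the highest level per kilobase if its shortest transcript is taken, 878 in WT at 0 h, but 234 with its longest. These lengths cover only the principal transcripts with the longest coding sequence, not all transcripts of a gene. Among those Uqcrh had 1 length, at 740 CPM per kilobase in WT. The order of these small subunits thus depends on which transcript is made. Cycs, the soluble electron carrier, had 552, 600 and 585 CPM in KO and 432, 396 and 391 CPM in WT (log2 fold change 0.51 ± 0.10, edgeR adjusted p = 0.00134).

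Complex IV had the widest range, with log2 fold changes between -0.00 and 0.66 and a median of 0.26. Cox6a1, the ubiquitous form of subunit VIa, had 61.8, 61.1 and 64.4 CPM in KO at 0 h, against 40.9, 39.6 and 37.8 CPM in WT, a log2 fold change of 0.66 ± 0.06 (edgeR adjusted p = 3.2e-13). Cox7a1, the muscle form of subunit VIIa, had 311, 317 and 357 CPM in KO and 351, 308 and 329 CPM in WT. These groups overlapped, and the log2 fold change was -0.00 ± 0.07. The other members of the complex with no call were Cox5a, at 0.10 ± 0.05 (edgeR adjusted p = 0.0905), Cox8b, at 0.15 ± 0.14 (edgeR adjusted p = 0.463), and Cox6b2, at 0.41 ± 0.34 on 0.6 to 1.13 CPM in KO and 0.479 to 0.793 CPM in WT (edgeR adjusted p = 0.38). Cox4i1, a regulatory subunit, had the highest level per length of the complex in WT at 0 h. By the longest and shortest of its principal transcripts it had 1700 to 1750 CPM per kilobase in KO at 0 h and 1540 to 1580 in WT. It was called higher at only 0.15 ± 0.04. Its direction turned to -0.18 with ribosomal protein scaling, to -0.23 with cardiomyocyte marker scaling and to -0.06 with library size alone. Cox6a2 was called higher at 0.19 ± 0.07 (edgeR adjusted p = 0.0467) although its libraries overlapped, and this direction turned under the same 3 scalings, to -0.14, -0.20 and -0.01.

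Every tested gene of complex V was called higher in KO at 0 h. Atp5b, the catalytic beta subunit and the most abundant member, had 5120, 5000 and 5080 CPM in KO and 3930, 3880 and 3800 CPM in WT, a log2 fold change of 0.39 ± 0.04 (edgeR adjusted p = 1.6e-12). Per kilobase it reached 2640 CPM in KO and 2020 in WT. Atp5a1, the alpha subunit that pairs with it, had 4250, 4190 and 4420 CPM in KO and 3790, 3740 and 3750 CPM in WT, and its log2 fold change of 0.19 ± 0.04 was the lowest of the complex. The highest was that of Atp5mpl, a small proteolipid, with 179, 187 and 175 CPM in KO and 136, 120 and 101 CPM in WT (0.60 ± 0.13, edgeR adjusted p = 0.00258). The 3 genes for the c subunit of the rotor ring, whose mature protein is the same, were each called higher: Atp5g1 at 0.32 ± 0.05, Atp5g2 at 0.53 ± 0.13 and Atp5g3 at 0.32 ± 0.04. With ribosomal protein scaling Atp5a1 turned to -0.14, called lower, and Atp5g1 and Atp5g3 to -0.01 each. Atp5a1 also turned to -0.19 with cardiomyocyte marker scaling, again called lower, and to -0.02 with library size alone.

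**Figure D2:**
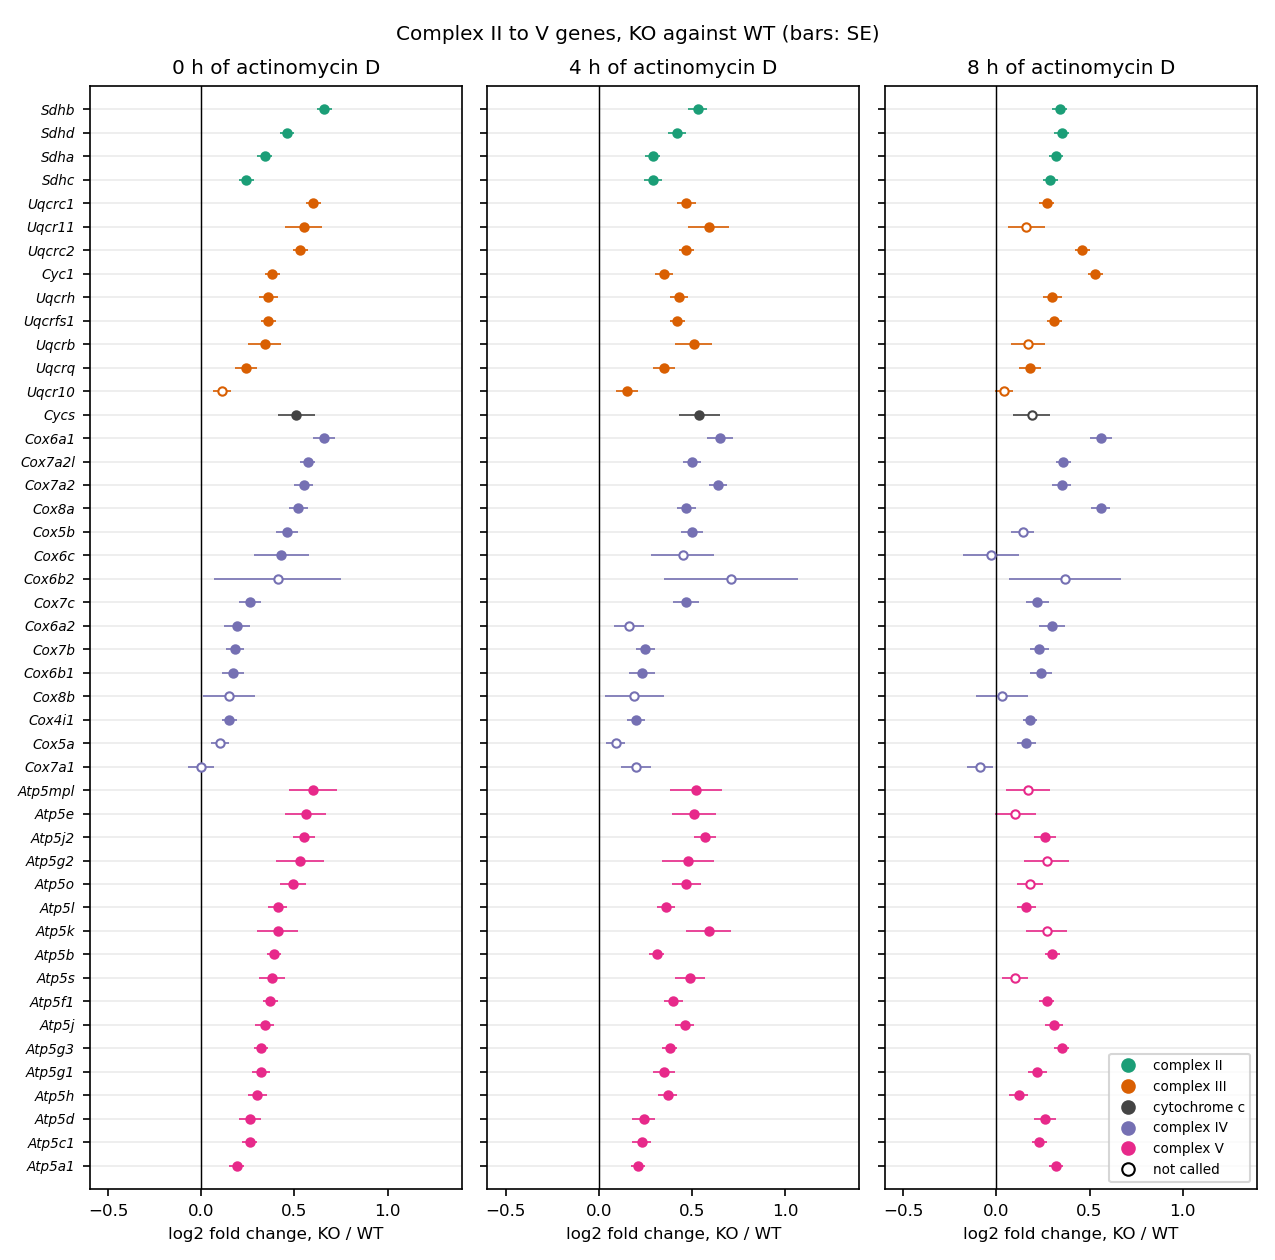
Log2 fold change of KO over WT for each of the 46 tested genes (rows, grouped by complex and colour) at 0, 4 and 8 h of actinomycin D (panels), with TMM scaling; bars are standard errors and open circles are genes with no edgeR call. At 0 and 4 h nearly all points lie right of 0, Cox7a1, Cox5a and Uqcr10 lie near 0 at 0 h, and the points shift toward 0 at 8 h.

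After 4 h of actinomycin D the KO libraries again stood above the WT libraries, with 40 of 46 members called higher and 0 lower, against 14.6% of all genes called higher and 17.4% called lower; 0 were lower at an unadjusted p under 0.05 and DESeq2 called 42 higher and 0 lower. The median over the members was 0.43, against -0.04 over all genes. In 44 of the 46 every KO library lay above every WT library at 4 h, as in 23.4% of all genes. Cox6a1 (0.65 ± 0.07) and Cox7a2 (0.64 ± 0.05) had the highest called log2 fold changes. Cox6b2 stood above them at 0.71 ± 0.36 with no call. Cox5a (0.09 ± 0.05) and Cox6a2 (0.16 ± 0.08) were not called, and Uqcr10 was called at 0.15 ± 0.06 (edgeR adjusted p = 0.0361). After 8 h, 31 of 46 members were called higher in KO and 0 lower, against 13.9% of all genes called higher and 13.7% called lower, with 0 lower at an unadjusted p under 0.05 and 33 higher and 0 lower by DESeq2. The median was 0.26, against -0.02 over all genes, and in 35 of the 46 every KO library lay above every WT library, as in 18.8% of all genes.

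The order of the members differed between 0 and 8 h. At 8 h the highest values were those of Cox8a (0.56 ± 0.05), Cox6a1 (0.56 ± 0.06) and Cyc1 (0.53 ± 0.04), and the lowest those of Cox7a1 (-0.09 ± 0.07), Cox6c (-0.03 ± 0.15) and Cox8b (0.03 ± 0.14), none of these last 3 called. Cyc1 had 973, 898 and 959 CPM in KO at 8 h, against 648, 661 and 645 CPM in WT, and Cox8a had 148, 152 and 159 CPM in KO, against 106, 103 and 102 CPM in WT. All 4 genes of complex II stayed called, between 0.29 and 0.35. In complex V the calls were 11 of 17, and Atp5e, the epsilon subunit, had 244, 238 and 279 CPM in KO at 8 h, overlapping 248, 238 and 226 CPM in WT (0.10 ± 0.11, edgeR adjusted p = 0.571). With cardiomyocyte marker scaling the split at 4 h was 11 higher and 1 lower, against 3.25% and 45.1% of all genes, and at 8 h 4 higher and 2 lower, against 2.71% and 47.0%. With ribosomal protein scaling it was 7 higher and 6 lower at 4 h, against 2.52% and 56.2% of all genes, and at 8 h the median was 0.21. The members' medians lay 0.47 and 0.28 above those of all genes at 4 and 8 h under every scaling. At 8 h the cardiomyocyte markers summed to 78400 to 84300 CPM in KO and 63900 to 71100 CPM in WT, and 7 of 12 were called higher in KO.

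Over the 8 h of actinomycin D the level of these transcripts rose relative to the other transcripts in both genotypes. Without untreated libraries at 8 h, the drug, the medium with BDM and the time in culture cannot be told apart. A scaled level is relative to the other transcripts of the library, so a rise here does not show an increase in the number of molecules. Cardiomyocyte markers were called higher over the same 8 h in 11 of 12 in KO and 10 of 12 in WT. All 12 endothelial markers were called lower in both genotypes, and summed to 59.9 to 63.6 CPM at 8 h against 213 to 248 CPM at 0 h in KO, and to 63.9 to 69.6 CPM at 8 h against 271 to 291 CPM at 0 h in WT. Macrophage and leukocyte markers summed to 21.5 to 26.2 CPM at 8 h against 34.6 to 38.9 CPM at 0 h in KO, and to 15.8 to 18.2 CPM at 8 h against 86.5 to 101 CPM at 0 h in WT. Fibroblast and erythroid sums were also lower at 8 h in both genotypes. Pericyte and smooth muscle markers summed to more at 8 h, 2540 to 2560 CPM in KO and 2240 to 2460 CPM in WT. In that list Des, Abcc9 and Acta2 were called higher in both genotypes, and Pdgfrb, Rgs5, Cspg4 and Myh11 lower. Atrial markers also summed to more, 130 to 145 CPM in KO and 85.6 to 94.6 CPM in WT. The part of these markers in the rise was not tested. In KO cells at 8 h against KO cells at 0 h, 43 of 46 members were called higher and 0 lower, against 21.4% of all genes called higher and 23.2% called lower, with a median of 0.40 against -0.02 for all genes. Here 1 member, Cox6a1, was lower at an unadjusted p under 0.05, and DESeq2 called 44 higher and 0 lower. In 43 members every KO library of 8 h lay above every KO library of 0 h, as in 24.9% of all genes. In WT cells at 8 h against WT cells at 0 h, 44 of 46 were called higher and 0 lower, against 25.0% of all genes called higher and 26.8% called lower, with a median of 0.51 against -0.03. None was lower at an unadjusted p under 0.05, and DESeq2 also called 44 higher and 0 lower. In 44 members every WT library of 8 h lay above every WT library of 0 h, as in 26.7% of all genes. The share of all counts held by the members was 4.223% to 4.512% in KO libraries at 8 h and 3.775% to 3.966% in WT libraries at 8 h.

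These rises too depend on the scaling. With ribosomal protein scaling the KO change at 8 h split into 2 higher and 4 lower, against 0.212% of all genes higher and 62.1% lower, and the WT change into 2 higher and 25 lower, against 0.385% and 85.2%. With cardiomyocyte marker scaling the splits were 5 higher and 1 lower in KO, against 0.627% and 50.1% of all genes, and 9 higher and 3 lower in WT, against 2.29% and 64.5%. Relative to all genes the members' medians lay 0.42 higher in KO and between 0.53 and 0.54 higher in WT, under each of the 6 scalings. Called higher under all 6 were Cox7a1 and Atp5k in KO and Atp5e and Uqcr11 in WT.

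At 4 h the medians were lower than at 8 h. In KO cells at 4 h against 0 h, 31 of 46 were called higher and 0 lower, against 11.4% of all genes called higher and 13.5% called lower, with a median of 0.24; 0 were lower at an unadjusted p under 0.05 and DESeq2 called 34 higher and 0 lower. In WT cells at 4 h against 0 h, 28 of 46 were called higher and 0 lower, against 15.9% of all genes called higher and 12.6% called lower, with a median of 0.20; 0 were lower at an unadjusted p under 0.05 and DESeq2 called 30 higher and 0 lower. The WT count at 4 h fell to 17 without WT replicate 2 at 0 h, to 18 without WT replicate 1 at 4 h and to 17 without WT replicate 2 at 4 h. With library size alone it was 1 higher and 1 lower, against 0.899% and 24.1% of all genes. With ribosomal protein or cardiomyocyte marker scaling it was 0 higher and 1 lower, against 0.333% and 23.0% of all genes for ribosomal protein scaling and 0.106% and 34.0% for cardiomyocyte marker scaling. In KO cells at 4 h, ribosomal protein scaling left 1 member called in each direction, against 0.144% of all genes higher and 34.9% lower, and cardiomyocyte marker scaling gave 4 higher and 1 lower, against 0.189% and 23.8%.

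Atp5e, Uqcr11 and Cox6c had the highest log2 fold changes over 8 h in WT. Atp5e had 151, 119 and 114 CPM at 0 h, 170 and 148 CPM at 4 h and 248, 238 and 226 CPM at 8 h in WT, a log2 fold change over 8 h of 0.90 ± 0.11 (edgeR adjusted p = 2.2e-05). Uqcr11, a small subunit of complex III, followed at 0.83 ± 0.10, and Cox6c, an accessory subunit of complex IV, at 0.80 ± 0.15. In KO the same 3 genes changed by 0.44 ± 0.11, 0.44 ± 0.10 and 0.34 ± 0.15, the last with no call. The largest called gains in KO were those of Cox7a1, with 311, 317 and 357 CPM at 0 h, 409, 423 and 444 CPM at 4 h and 533, 488 and 499 CPM at 8 h (0.63 ± 0.07, edgeR adjusted p = 2.1e-06), Atp5k, a subunit of the ATP synthase membrane sector (0.55 ± 0.11), and Cox8b (0.54 ± 0.14). Cox7a1 gained in WT too, at 0.72 ± 0.07.

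Cox6a1 did not follow the group. It had 61.8, 61.1 and 64.4 CPM at 0 h, 57.3, 62.3 and 56.8 CPM at 4 h and 54.0, 52.4 and 65.2 CPM at 8 h in KO, and 40.9, 39.6 and 37.8 CPM at 0 h, 39.6 and 35.3 CPM at 4 h and 38.3, 41.1 and 37.2 CPM at 8 h in WT. Its log2 fold change over 8 h was -0.13 ± 0.06 in KO (edgeR adjusted p = 0.097) and -0.02 ± 0.07 in WT (edgeR adjusted p = 0.823), neither called, with libraries of 8 h and 0 h overlapping. Cox8a, another ubiquitous form, changed by 0.21 ± 0.05 in KO and 0.17 ± 0.05 in WT, both called, and turned to -0.18 and -0.49 with ribosomal protein scaling. Cyc1 changed by 0.42 ± 0.04 in KO and 0.26 ± 0.04 in WT, and in WT it turned to -0.40 with ribosomal protein scaling. The Sdh genes ranged from 0.22 (Sdhd) to 0.41 (Sdha) in KO and from 0.32 (Sdhd) to 0.61 (Sdhb) in WT, all called.

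**Figure D3:**
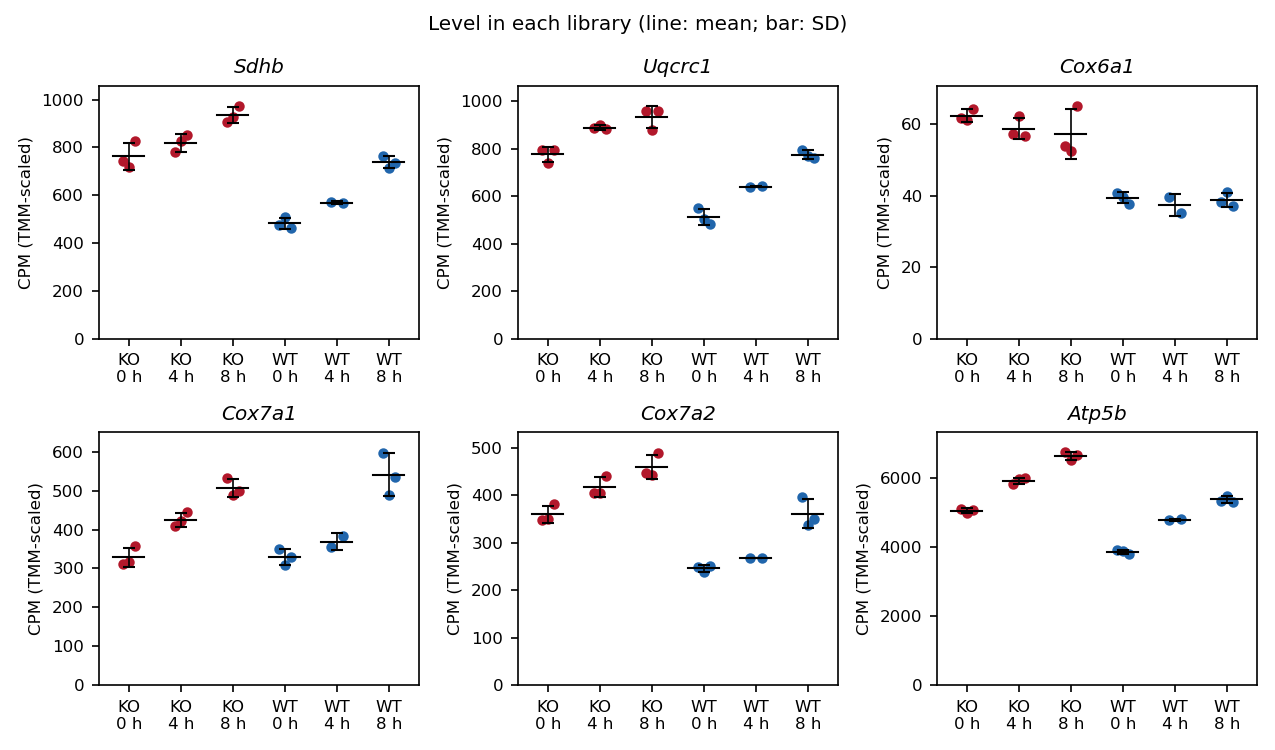
Level of 6 genes in each library, in CPM after TMM scaling, for KO and WT at 0, 4 and 8 h; points are libraries, lines are means and bars are standard deviations (n = 3, and n = 2 for WT at 4 h). Sdhb, Uqcrc1, Cox7a2 and Atp5b are higher in KO and climb with time in both genotypes, Cox7a1 overlaps between KO and WT at 0 h, and Cox6a1 stays level over time.

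The difference between the KO and WT time courses was tested as an interaction. At 4 h, 0 of 46 members were called in either direction, against 0.348% of all genes called in either direction; 2 had an unadjusted p under 0.05, and DESeq2 called 0. At 8 h, 6 of 46 were called with a smaller gain in KO and 0 with a larger one, against 3.33% of all genes called lower and 1.87% called higher, while 16 members had an unadjusted p under 0.05, 14 of them lower. DESeq2 called 6 lower and 1 higher. The members' median was -0.09 and that of all genes -0.02. Uqcrc1 had 960, 881 and 960 CPM in KO at 8 h and 796, 770 and 760 CPM in WT at 8 h, and gained 0.27 ± 0.04 in KO against 0.60 ± 0.04 in WT, a difference of -0.33 ± 0.06 (edgeR adjusted p = 0.0002). Sdhb had 905, 927 and 972 CPM in KO at 8 h and 763, 714 and 737 CPM in WT at 8 h, and gained 0.29 ± 0.04 in KO against 0.61 ± 0.04 in WT, a difference of -0.32 ± 0.06 (edgeR adjusted p = 0.00069). The others were Cox5b, Atp5j2, Atp5l and Cox7a2l, between -0.20 and -0.31.

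This count depends on both the scaling and the libraries. With ribosomal protein scaling 15 members were called higher and 0 lower, against 21.8% and 0.333% of all genes. With cardiomyocyte marker scaling 0 were called lower, against 0.340% of all genes, and with library size alone 3 were lower and 2 higher, against 0.998% and 4.26%. It was 2 without KO replicate 3 at 0 h or WT replicate 1 at 8 h, 3 without KO replicate 2 at 0 h or at 8 h, and 10 without KO replicate 3 at 8 h or WT replicate 1 at 0 h. The members' median lay between 0.07 and 0.08 below that of all genes under each of the 6 scalings. Macrophage and leukocyte markers, of which 9 of 12 were called higher in the same interaction, summed to 21.5 to 26.2 CPM in KO and 15.8 to 18.2 CPM in WT at 8 h, and 4 of 12 cardiomyocyte markers were called lower in it. Their part in the result was not tested.

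**Figure D4:**
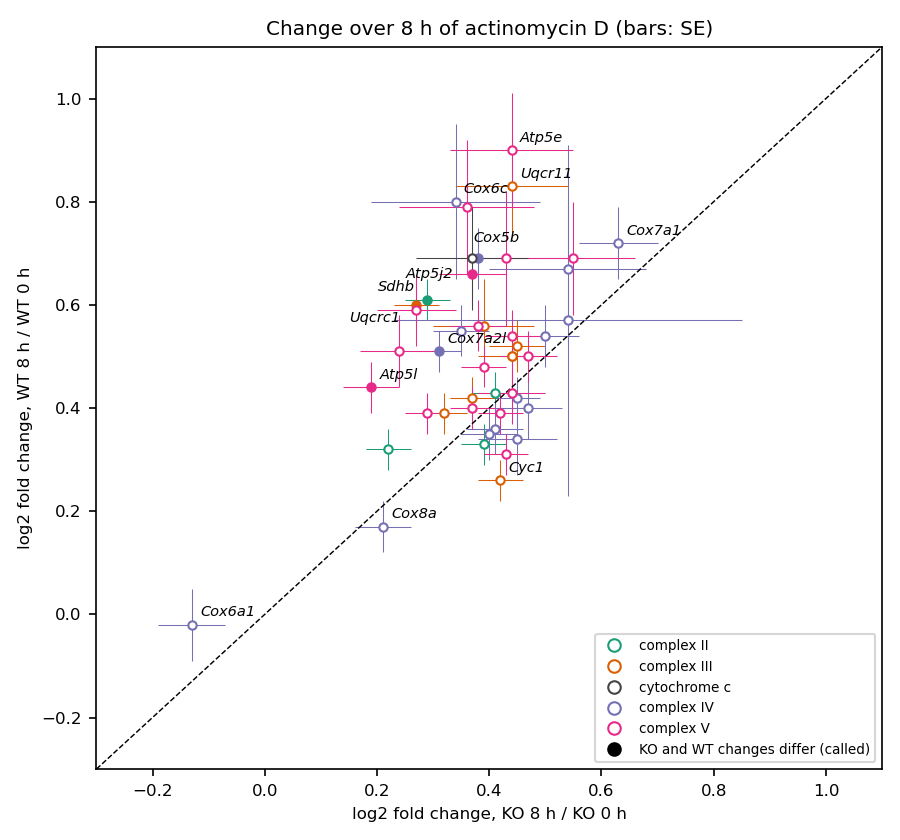
Log2 fold change over 8 h of actinomycin D in KO (horizontal) and in WT (vertical) for the 46 tested genes, with standard errors as bars and TMM scaling; filled points are the 6 genes whose change differed between genotypes by the edgeR interaction test, and the dashed line marks equal change. Those 6 lie above the line, Cyc1 lies below it, and Cox6a1 sits near 0 on both axes.

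Complex IV offers a comparison that no scaling can alter, because several of its subunits exist as a muscle form and a ubiquitous form counted in the same library. In the count ratio of Cox7a1 to Cox7a2, KO libraries had 0.891, 0.902 and 0.936 at 0 h, 1.01, 1.04 and 1.0 at 4 h and 1.19, 1.1 and 1.02 at 8 h. WT libraries had 1.41, 1.29 and 1.31 at 0 h, 1.32 and 1.43 at 4 h and 1.5, 1.45 and 1.53 at 8 h. Every KO library lay below every WT library, across all times. The log2 ratio was lower in KO by a difference of -0.48 (exact permutation test of genotype within time, two-sided, p = 2.5e-04, the smallest that 4000 arrangements allow; Benjamini-Hochberg adjusted p = 5.8e-04 over 7 pairs). The test takes libraries of different times as independent. Whether cells of the same preparation were split over the times is not given, and if they were, p could be larger.

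The pairs for subunits VIa and VIII went the same way. For Cox6a2 over Cox6a1, KO libraries had 18.3, 19.4 and 18.1 at 0 h, 20.7, 20.1 and 23.5 at 4 h and 27.5, 30.7 and 25.6 at 8 h, and WT libraries 28.6, 23.7 and 25.1, then 28.9 and 31.3, then 34.2, 31.6 and 34.0. At each time the KO libraries lay below the WT libraries. For Cox8b over Cox8a, KO libraries had 2.40, 2.72 and 2.35 at 0 h, 2.57, 2.94 and 2.81 at 4 h and 3.24, 2.71 and 3.42 at 8 h, and WT libraries 3.58, 3.24 and 2.77, then 3.53 and 3.16, then 4.79, 4.87 and 3.87, again with no overlap within a time. The log2 differences were -0.40 and -0.38, with the same exact permutation p of 2.5e-04 and adjusted p of 5.8e-04 for each. Of the single genes at 0 h, the ubiquitous forms Cox6a1, Cox7a2 and Cox8a had log2 fold changes of 0.66, 0.55 and 0.52, and the muscle forms Cox6a2, Cox7a1 and Cox8b 0.19, -0.00 and 0.15. At 8 h the genotype difference of the log2 ratio was -0.44 for Cox7a1 over Cox7a2, -0.25 for Cox6a2 over Cox6a1 and -0.53 for Cox8b over Cox8a.

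**Figure D5:**
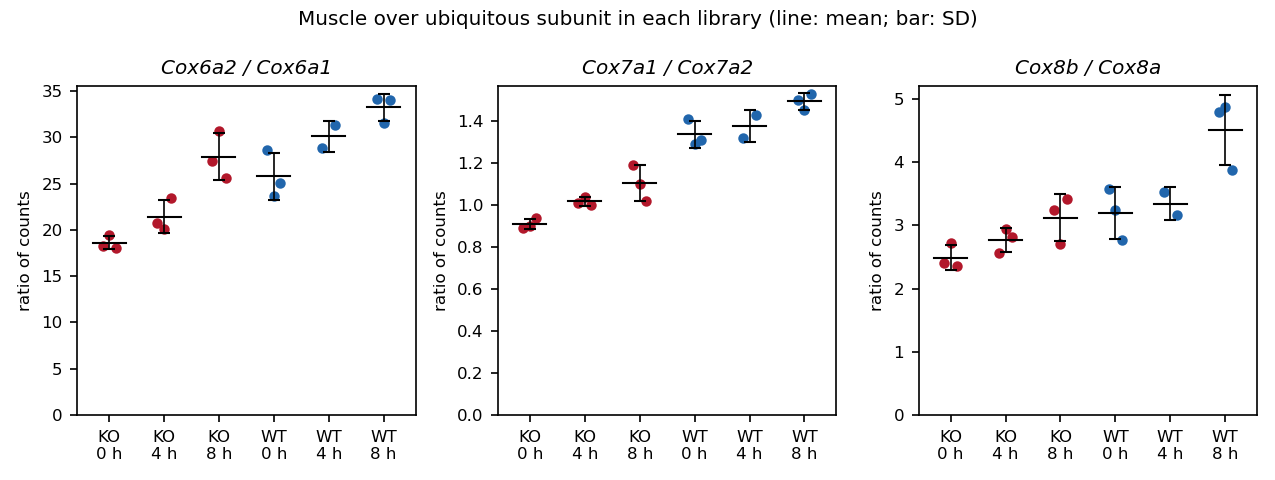
Ratio of counts of the muscle to the ubiquitous form of subunits VIa, VIIa and VIII of complex IV in each library, for KO and WT at 0, 4 and 8 h; points are libraries, lines are means and bars are standard deviations (n = 3, and n = 2 for WT at 4 h). Within each time all KO libraries lie below all WT libraries, and the 8 h means lie above the 0 h means in both genotypes.

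The 3 ratios were also higher at 8 h than at 0 h, by log2 differences of 0.48 for Cox6a2 over Cox6a1 and 0.22 for Cox7a1 over Cox7a2 (exact permutation within genotype, two-sided, p = 0.005 each, the smallest that 400 arrangements allow, adjusted p = 0.0175) and of 0.41 for Cox8b over Cox8a (exact permutation p = 0.01, adjusted p = 0.0233). For Cox6a2 over Cox6a1 the gain was 0.58 in KO and 0.37 in WT, and for Cox8b over Cox8a it was 0.32 in KO and 0.50 in WT; the differences between these gains were not tested. The remaining pairs gave no call in either comparison. Between KO and WT they were Cox6b2 over Cox6b1 (log2 difference 0.28, exact permutation adjusted p = 0.363), Atp5g1 over Atp5g3 (-0.05, adjusted p = 0.404), Atp5g2 over Atp5g3 (0.08, adjusted p = 0.404) and Cox7a2l over Cox7a2 (-0.04, adjusted p = 0.412). Cox4i2, the form of subunit IV linked to low oxygen, was too low to pair with Cox4i1, at 0 to 7 counts a library. Ubiquitous forms are made in other cell types as well. At 0 h the fibroblast, macrophage and leukocyte, endothelial and erythroid marker sums were lower in KO. The pericyte and smooth muscle sum and the atrial sum were higher. In the former Des was called higher and Abcc9 lower, in the latter Nppa higher and Myl7, Myl4, Sln and Bmp10 lower. At 8 h the macrophage and leukocyte, the pericyte and smooth muscle and the atrial sums were higher in KO. The fibroblast, endothelial and erythroid sums were still lower in KO at 8 h. The part of these cell types in the ratios was not tested.

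The promoters of these pairs and of Sdhb are printed because their genes lie at the ends of the range. Sequences are from RefSeq (GRCm38.p6), from 250 bases before to 50 bases after the start of each gene, read 5′ to 3′ on the gene's strand. For Cox7a2 the start taken lies 11569 bases inside the outer end of the RefSeq gene. Capitals mark matches to the core motif CCGGAAG of ETS family factors such as GABP (reverse complement CTTCCGG) or to the motif of NRF1, which reads GCGCA, any base, GCGC, or its reverse complement.
Cox7a1 (muscle form; chr7:30183921-30184220, plus strand): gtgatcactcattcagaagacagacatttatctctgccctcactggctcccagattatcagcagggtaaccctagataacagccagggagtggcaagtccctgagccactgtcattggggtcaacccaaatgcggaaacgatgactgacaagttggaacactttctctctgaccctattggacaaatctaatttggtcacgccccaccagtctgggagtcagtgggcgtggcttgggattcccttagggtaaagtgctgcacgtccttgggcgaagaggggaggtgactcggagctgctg
Cox7a2 (ubiquitous form; chr9:79759804-79760103, minus strand): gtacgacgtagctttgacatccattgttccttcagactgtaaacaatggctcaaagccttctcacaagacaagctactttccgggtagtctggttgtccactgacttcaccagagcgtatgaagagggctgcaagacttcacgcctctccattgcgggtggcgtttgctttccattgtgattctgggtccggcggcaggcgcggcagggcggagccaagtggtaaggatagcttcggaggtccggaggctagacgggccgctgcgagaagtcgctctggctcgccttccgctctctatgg
Cox8b (muscle form; chr7:140900397-140900696, minus strand): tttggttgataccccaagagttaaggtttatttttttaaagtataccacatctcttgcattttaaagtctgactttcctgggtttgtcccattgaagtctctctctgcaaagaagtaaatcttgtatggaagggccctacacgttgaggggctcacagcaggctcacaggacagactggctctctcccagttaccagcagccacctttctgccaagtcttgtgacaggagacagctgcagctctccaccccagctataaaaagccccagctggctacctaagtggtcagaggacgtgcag
Cox8a (ubiquitous form; chr19:7217567-7217866, minus strand): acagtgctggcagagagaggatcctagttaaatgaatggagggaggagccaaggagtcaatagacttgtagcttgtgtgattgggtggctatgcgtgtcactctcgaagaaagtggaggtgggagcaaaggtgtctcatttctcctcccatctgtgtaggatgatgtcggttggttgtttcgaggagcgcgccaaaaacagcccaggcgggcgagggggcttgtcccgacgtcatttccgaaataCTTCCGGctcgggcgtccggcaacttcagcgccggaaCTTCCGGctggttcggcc
Cox6a1 (ubiquitous form; chr5:115348909-115349208, minus strand): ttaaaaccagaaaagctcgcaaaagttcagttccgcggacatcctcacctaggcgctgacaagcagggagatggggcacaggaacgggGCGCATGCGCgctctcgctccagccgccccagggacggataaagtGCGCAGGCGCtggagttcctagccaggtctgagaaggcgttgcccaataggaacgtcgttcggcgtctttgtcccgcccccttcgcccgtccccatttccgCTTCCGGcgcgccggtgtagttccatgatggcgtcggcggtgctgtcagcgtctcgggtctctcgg
Sdhb (iron-sulphur subunit of complex II; chr4:140961021-140961320, plus strand): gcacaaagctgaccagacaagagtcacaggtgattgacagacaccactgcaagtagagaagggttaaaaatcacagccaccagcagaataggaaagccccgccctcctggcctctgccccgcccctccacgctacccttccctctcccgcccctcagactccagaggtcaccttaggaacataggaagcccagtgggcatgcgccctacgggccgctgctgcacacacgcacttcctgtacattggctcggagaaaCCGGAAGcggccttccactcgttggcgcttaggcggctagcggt

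Cox7a1, Cox7a2 and Cox8b held none of the 4 motifs searched on both strands, Cox8a held 2 matches to the ETS motif, Cox6a1 held 2 matches to NRF1 and 1 to ETS, and Sdhb held 1 to ETS. Cox6a2 had no entry. A promoter was given for 36 of the 46 tested members. Of these, 10 (27.8%) held the NRF1 motif, against 7.17% of 17492 genes, and 12 (33.3%) held the ETS motif, against 12.9%. The 17492 are all protein-coding genes with a promoter given, whether or not they were expressed and tested here. The motif AAGGTCA of oestrogen-related receptors was in 5 (13.9%), against 4.73%, and the motif AAGATGGC of YY1 in 3 (8.33%), against 3.57%. Matches to different motifs did not overlap in any member. Members with an NRF1 match included Sdha, Sdhd, Uqcrc1, Cox6a1, Atp5g2 and Atp5g3, and members with an ETS match included Sdhb, Sdhd, Uqcr11, Cox8a, Cox6b1 and Atp5e. These are matches of letters in 1 window and were not tested against the expression data.

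The tested members are short transcripts. Their median length was 787 bases with a 3′ UTR of 188 bases, against 3053 and 1033 bases over 12033 protein-coding genes tested. Over the 46 members the log2 fold change of WT at 8 h against 0 h had a Spearman rho of -0.48 with 3′ UTR length and -0.41 with transcript length, and that of KO at 8 h against 0 h -0.21 and -0.31. Over the same 46 genes the KO to WT difference at 0 h had a rho of -0.03 and 0.02, and that at 8 h of 0.29 and 0.40. These are descriptions over genes that share libraries, library preparation and, in part, small size. Many of these genes have processed pseudogenes, and how reads with several positions were counted is not given, so the levels of the smallest are uncertain.

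Genes that work with complexes II to V were counted in the same way. Over all genes, 18.8% were called higher in KO at 0 h and 17.9% lower. Over 8 h of actinomycin D, 21.4% of all genes were called higher in KO and 25.0% in WT. Of 37 complex I subunits tested, the chain's other entry point, 33 were called higher in KO at 0 h and 0 lower, with a median of 0.42, from Ndufb1-ps (-0.10) to Ndufv3 (0.62), and over 8 h 37 were called higher in KO and 36 in WT. Assembly factors of complex IV had 11 of 23 called higher in KO at 0 h and 0 lower, with a median of 0.16, from Cox18 (-0.17, no call) to Cox17, a copper carrier (0.68). Of the complex III assembly factors 3 of 6 were called higher, with Uqcc2 at 0.67, and of those of complex II 2 of 4, between -0.04 and 0.25. All 6 complex V factors and partners were called higher, with Usmg5 at 0.59 at the top and Atpaf1 at 0.18 at the bottom. Among cytochrome c and quinone partners 10 of 15 were higher and 1 lower, from Cyb5b (-0.35, called lower) to Etfa, the electron transfer flavoprotein subunit (0.61).

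Factors known to drive respiratory genes formed another list. Of 16 regulators, 3 were called higher in KO at 0 h and 1 lower, with a median of 0.03; over all genes 18.8% were called higher and 17.9% lower. Ppargc1a, the PGC-1alpha coactivator, was highest at 0.40, and Perm1, its muscle partner, lowest at -0.11. Over 8 h of actinomycin D, 9 of 16 were called lower and 3 higher in KO, and 8 lower and 2 higher in WT, against 23.2% of all genes lower and 21.4% higher in KO and 26.8% lower and 25.0% higher in WT. Pprc1 stood at -1.51 in KO and -1.36 in WT, the lowest, and Tfb2m, a mitochondrial transcription factor, at 0.25 in KO and 0.27 in WT, the highest. Of the 13 subunits encoded in mitochondrial DNA, 9 were called higher in KO at 0 h and 0 lower. The median of the 13 was 0.72, with a range from mt-Co3 (-0.76 ± 0.91, no call) to mt-Atp8 (4.12 ± 1.38). Errors were wide for mt-Nd4l, mt-Co2, mt-Co3, mt-Atp6 and mt-Atp8 (SE 0.64 to 1.38), all above that median except mt-Co3. The others had an SE of 0.06 to 0.16 and ranged from mt-Co1 (0.09, no call) to mt-Nd6 (0.92). At 8 h 2 of the 13 were called higher in KO and 0 lower, against 13.9% of all genes higher and 13.7% lower. Over 8 h, 5 of the 13 were called lower and 0 higher in KO, mt-Atp8 among the 5. In WT 0 were lower and 2 higher, mt-Nd4l among the 2. These counts are set beside those of the nuclear genes as descriptions; no difference between the lists was tested.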

How the data were processed

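Gene-level RNA sequencing counts of 17 libraries were used. The authors deposited raw counts for 55487 Ensembl identifiers; limma, DESeq2, featureCounts and STAR, and the builds mm10 and GRCm38, are listed in the submitters' processing notes. Their versions, their roles, the use of strand and the handling of reads with several positions are not given there. A table of corrected ratios was not used here. Symbols, positions and lengths came from GENCODE M21 (GRCm38), which held 99.5% of the identifiers.

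The counts were fitted with edgeR 4.0.16 in R 4.3.3 as 1 model of 6 groups (low counts removed by filterByExpr, leaving 13230 genes; TMM scaling; robust quasi-likelihood test), with Benjamini-Hochberg adjustment over all 13230 genes and calls at an adjusted p under 0.05. The biological coefficient of variation was 5.28%. The tested genes held 99.9% of the counts, and totals of 17059736 to 17971617 counts a library leave Cox6b2 as the one tested member with few counts. Isoform ratios used log2 of counts plus 0.5 and exact permutation tests, for pairs whose genes both average 10 counts or more. These permutation tests take all libraries as independent, within and across times, which the labels do not show. The scripts were tested on simulated data. Residual correlations between libraries of equal replicate number ranged from -0.393 to 0.314 over 40 pairs. They were not compared with pairs of unequal number, so they do not show whether libraries were paired. Within a group, the squared difference between libraries was 1.26 to 1.94 times that of counting error over 16 pairs, so each was counted as a library of its own; repeat preparations of one sample cannot be told apart from separate samples by this.

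Members and lists were chosen with earlier results of these data known. Values are given for all members of an isoform pair, the Sdh genes, Cyc1 and Cycs, the 3 highest and 3 lowest members of each comparison, the highest level per kilobase in each complex, with Uqcrc2, Uqcrfs1, Cox5b and Atp5j2 named after their values were seen; of other lists, the highest and lowest genes. Alternatives were RLE, library size, non-mitochondrial library size and ribosomal protein scaling, no filter, a replicate block, DESeq2 1.42.0, a pseudocount of 5 and each library left out, with cardiomyocyte marker scaling added after the data were seen.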

Additional observations from a re-analysis of the deposited data

Results flagged for a closer look

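The change over 8 h of actinomycin D differed between KO and WT for 6 respiratory genes by the interaction term of the edgeR fit, in each case with the smaller gain in KO. The differences on the log2 scale (KO change minus WT change) were -0.33 for Uqcrc1, -0.32 for Sdhb, -0.31 for Cox5b, -0.29 for Atp5j2, -0.25 for Atp5l and -0.20 for Cox7a2l, with edgeR adjusted p between 0.000195 and 0.0371. All 6 started higher in KO at 0 h, by log2 fold changes of 0.60, 0.66, 0.46, 0.55, 0.41 and 0.57. At 8 h the KO to WT differences were 0.27, 0.34, 0.14, 0.26, 0.16 and 0.36, the one for Cox5b with no call. DESeq2 gave adjusted p between 4.5e-05 and 0.0321 for the 6. None of the 6 was called with ribosomal protein or cardiomyocyte marker scaling, and with library size alone Uqcrc1 was called (edgeR adjusted p = 0.0449) and the other 5 were not. No group holds 4 or more libraries, so single libraries were not screened as outliers.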

How the results depend on the processing

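Scaling moves all genes together, so the members' distance from the median of all genes could not change with it. It kept its value to within 0.01 under all 6 scalings in the 9 comparisons, which is no check of the result. The counts of calls did change. Counts that stayed near those of the main fit are left out here. With library size alone, 24 members were called higher and 1 lower in KO against WT at 0 h, 1 lower at 8 h, 1 lower in KO at 8 h against 0 h, 1 higher and 1 lower in WT at 4 h, 1 lower in WT at 8 h, and in the interactions 2 higher at 4 h, 2 higher and 3 lower at 8 h. Under it, 6.88% of all genes were called higher and 42.0% lower in KO against WT at 0 h, and 23.0% lower at 8 h. Over 8 h, 30.1% were lower in KO and 44.5% in WT. In WT at 4 h 0.899% were higher and 24.1% lower. The interactions had 0.741% higher at 4 h, and 4.26% higher and 0.998% lower at 8 h. With non-mitochondrial library size, 1 was lower in KO against WT at 8 h, 15 were higher and 1 lower in KO at 4 h, 27 higher and 1 lower in KO at 8 h, 3 higher and 1 lower in WT at 4 h, 1 lower in WT at 8 h and 1 higher in the interaction at 8 h. Under that scaling 26.0% of all genes were lower in KO against WT at 8 h. In KO 1.69% were higher and 23.5% lower at 4 h, and 4.66% and 44.0% at 8 h. In WT 1.66% were higher and 24.8% lower at 4 h, and 50.9% lower at 8 h. In the interaction at 8 h 2.70% were higher. With ribosomal protein scaling, 13 were higher and 7 lower in KO against WT at 0 h, 7 higher and 6 lower at 4 h, 1 higher and 1 lower in KO at 4 h, 2 higher and 4 lower in KO at 8 h, 0 higher and 1 lower in WT at 4 h, 2 higher and 25 lower in WT at 8 h, and 15 higher and 0 lower in the interaction at 8 h. With cardiomyocyte marker scaling, 7 were higher and 9 lower in KO against WT at 0 h, 11 higher and 1 lower at 4 h, 4 higher and 2 lower at 8 h, 4 higher and 1 lower in KO at 4 h, 5 higher and 1 lower in KO at 8 h, 0 higher and 1 lower in WT at 4 h, 9 higher and 3 lower in WT at 8 h, and 0 lower in the interaction at 8 h. For ribosomal protein and cardiomyocyte marker scaling, the shares of all genes are given above beside the same counts. Without the filter on low counts 2 members were higher in each interaction, and DESeq2 called 1 higher in that at 8 h. The fit without the filter held 48 members, and DESeq2 was given all 50. No share of all genes is given for these settings, for the replicate block or for fits with a library left out. Their counts can therefore not be set against such a share.

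Over all 46 members, those whose sign turned with a call before or after numbered 15 in KO against WT at 0 h, 19 in KO at 8 h and 35 in WT at 8 h with ribosomal protein scaling, and 22, 8 and 13 with cardiomyocyte marker scaling. Of these, the genes whose values the report prints were the following, on the log2 scale. With ribosomal protein scaling, KO against WT at 0 h: Atp5a1 -0.14, Atp5g1 -0.01, Atp5g3 -0.01, Cox4i1 -0.18, Cox5a -0.23, Cox6a2 -0.14, Cox6b1 -0.16, Sdhc -0.09 and Uqcr10 -0.23, and at 4 h Cox5a -0.27, Cox6a2 -0.20 and Uqcr10 -0.21. KO at 8 h against 0 h, same scaling: Atp5l -0.19, Cox7a2 -0.04, Cox7a2l -0.08, Cox8a -0.18, Cycs -0.02, Sdhb -0.09, Sdhc 0.00 (just below 0), Sdhd -0.17 and Uqcrc1 -0.12. WT at 8 h against 0 h, same scaling: Atp5g1 -0.13, Atp5g3 -0.27, Cox4i1 -0.24, Cox6a2 -0.32, Cox6b1 -0.26, Cox7a2 -0.11, Cox7a2l -0.15, Cox8a -0.49, Cox8b 0.00 (just below 0), Cyc1 -0.40, Sdha -0.23, Sdhb -0.05, Sdhc -0.33, Sdhd -0.35 and Uqcrc1 -0.07, and in the interaction at 8 h Atp5l 0.03 and Cox7a2l 0.07. With cardiomyocyte marker scaling, KO against WT at 0 h: Atp5a1 -0.19, Atp5g1 -0.07, Atp5g3 -0.06, Cox4i1 -0.23, Cox5a -0.28, Cox6a2 -0.20, Cox6b1 -0.21, Cyc1 0.00 (just below 0), Sdha -0.04, Sdhc -0.14, Uqcr10 -0.28 and Uqcrfs1 -0.02, at 4 h Cox5a -0.19 and Uqcr10 -0.12, and at 8 h Atp5j2 -0.01, Atp5l -0.11 and Uqcrc1 0.00 (at 0). KO at 8 h against 0 h, same scaling: Atp5l -0.11, Cox8a -0.09, Sdhb -0.01, Sdhd -0.09 and Uqcrc1 -0.04; WT at 8 h against 0 h: Atp5g3 -0.03, Cox6a2 -0.08, Cox6b1 -0.01, Cox8a -0.25, Cyc1 -0.15, Sdhc -0.08 and Sdhd -0.10. With library size alone, KO against WT at 0 h: Atp5a1 -0.02, Cox4i1 -0.06, Cox6a2 -0.01 and Cox6b1 -0.03, and WT at 8 h Cox8a -0.04. With non-mitochondrial library size, KO against WT at 0 h: Cox4i1 0.00 (just below 0); KO at 8 h: Atp5l -0.03, Cox8a -0.02 and Sdhd -0.01; WT at 8 h: Cox8a -0.09 and Cyc1 0.00 (just below 0). The cause was not tested.

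Leaving out 1 library at a time, members called higher ranged over 36 to 41, 37 to 41 and 29 to 33 in KO against WT at 0, 4 and 8 h (lower 0, 0, and 0 to 1, the 1 without WT replicate 2 at 8 h). They ranged over 27 to 34 in KO at 4 h, 40 to 43 in KO at 8 h (lower 0 to 1, the 1 without KO replicate 3 at 8 h), 17 to 32 in WT at 4 h, 44 to 44 in WT at 8 h, 0 to 1 higher in the interaction at 4 h (the 1 without WT replicate 2 at 4 h) and 2 to 10 lower in that at 8 h. With 2 WT libraries at 4 h, a lone remaining library is assumed to vary like the other groups. The isoform ratios kept direction and call for 3 pairs in KO against WT (-0.43 to -0.38 for Cox6a2 over Cox6a1, -0.50 to -0.46 for Cox7a1 over Cox7a2 and -0.42 to -0.35 for Cox8b over Cox8a) and with a pseudocount of 5. A replicate block was also fitted, though whether the numbers pair the libraries is not given. It gave 40, 39 and 32 higher in KO against WT at 0, 4 and 8 h, and 8 lower in the interaction at 8 h. Over time it gave 32 and 42 higher in KO and 31 and 44 in WT at 4 and 8 h.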
